A study of Rattus norvegicus with 15 samples.

Results

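The antioxidant, glutathione and thioredoxin genes described here are a list of 41 genes put together by function. It holds the superoxide dismutases, catalase and the glutathione peroxidases, the peroxiredoxins with sulfiredoxin, the thioredoxin and glutaredoxin systems, the genes that supply and recycle glutathione, the glutathione transferases, heme oxygenase, quinone reductase and the metallothioneins, and the regulators Nrf2 (gene Nfe2l2) and Keap1. Members were found by gene symbol, and 39 of the 41 have a row among the 28914 genes of the count table. Srxn1 and Mt1a have no row under those symbols. All 39 passed the filter on low counts and were tested.

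The libraries are polyadenylated RNA from isolated islets of Lewis rats, collected 10 weeks after an operation. In 10 rats 90% of the pancreas was taken out (partial pancreatectomy, Px), and 5 rats had a sham operation (Sham). The labels describe the rats as 4 to 5 weeks old without saying at which point, give no genotype beyond the strain, and give each rat's average blood glucose before collection without a unit. Glucose was 88 to 96 in Sham, 104 to 211 in 7 Px rats (lower-glucose Px) and 416 to 464 in 3 Px rats (higher-glucose Px). No statement says that each library is a separate animal beyond the numbering of the labels, so p-values measure the spread between these libraries.

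Cells hold reactive oxygen in check by steps that follow each other. Superoxide dismutases turn superoxide into hydrogen peroxide, and catalase, glutathione peroxidases and peroxiredoxins remove the peroxide, the last 2 families with electrons from glutathione and thioredoxin. Nrf2 is the transcription factor that switches on many of these genes, and Keap1 holds it back by marking it for degradation. Beta cells are known for low levels of catalase and of glutathione peroxidase next to other tissues.

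Library totals ran from 12.2 to 33.4 M counts, and the 39 members took 0.107% to 0.286% of them. Markers of other cells moved with the surgery. Of 26 acinar markers (digestive-enzyme genes) 25 were higher in Px, with 1.13% to 15.9% of the counts in Sham and 21.9% to 51.8% in Px. All 16 macrophage and myeloid markers in the table were higher, with a summed level of 37.1 to 80.5 counts per M (CPM, with library sizes scaled by TMM) in Sham, 862.5 to 4562 in lower-glucose Px and 898.6 to 1308 in higher-glucose Px. All 16 fibroblast and stellate cell markers were higher, with sums of 365.6 to 801.6, 4708 to 9844 and 2221 to 3658 CPM in the same order. Of 12 duct markers 9 were higher, of 10 endothelial markers 8 were higher, and of 7 alpha, delta and PP cell markers 3 were higher. Of the 9 beta cell markers 8 were lower, and their sum was 87570 to 189900 CPM in Sham against 38650 to 80140 in Px. No marker in these lists was at 0 in every Sham library. In bulk islets fewer cells of a type and less RNA per cell cannot be told apart. The part of these cell types in the results below was tested only as far as the covariate fits and the relations to marker scores given there.

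In Px against Sham 23 of the 39 members were higher and 3 were lower, at an adjusted p below 0.05 in edgeR's quasi-likelihood test with Benjamini-Hochberg adjustment over all genes. Of all 15199 genes tested, 34.5% were higher and 30.2% lower. The members' median log2 fold change was 0.88, beside 0.02 over all genes. For 17 members every Px library lay above every Sham library, where 20.8% of all genes did so, and for 1 member, Gclm, every Px library lay below, where 16.4% of all genes did so. The groups overlapped for 21 members. The header of the authors' deposited table does not name its contrast, and it was read as Px against Sham from its signs. Read so, it had 23 members higher and 3 lower, with the same call for 39 of 39. The shared direction is therefore not a separate test.

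The split depends on what the libraries are scaled to. Scaling by library totals moved the median log2 fold change of all genes to -0.62 and gave 14 members higher and 9 lower, and scaling to genes of endocrine cells moved it to 0.61 and gave 37 higher and 1 lower. Relative to the median of all genes, the members' median was 0.86, 0.88 and 0.88 higher under TMM, library totals and endocrine scaling. Under each, 32 members lay above that median and 7 below it. Scaling shifts all genes of a library nearly alike, so this gap and this split could hardly change with it. Without a filter on low counts the gap was 0.678, with 27 members above and 12 below. With the acinar score (mean log2 CPM of the acinar markers) as a covariate 18 members were higher and 2 lower, and with the fibroblast score 6 were higher and 0 lower. With the macrophage score edgeR called 0 higher and 0 lower, with 6 at an unadjusted p below 0.05. The members' median lay 0.495, 0.369 and 0.082 above that of all genes with the acinar, fibroblast and macrophage score. In the same order 25, 23 and 20 members lay above the median of all genes and 14, 16 and 19 below it. The acinar score was 6.39 to 10.3 in Sham and 11.2 to 13.1 in Px, the fibroblast score 3.096 to 4.50 and 6.15 to 8.08, and the macrophage score 0.793 to 1.80 and 5.01 to 6.71. No score overlapped between the groups, so in all 3 fits the score and the surgery cannot be told apart.

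The calls that ended and those that were gained differ by setting. Library totals ended the calls of Sod1, Gpx7, Prdx1, Prdx6, Gsr, Gsta4, Mgst3, Nqo1 and Nfe2l2. They newly called Cat, Gpx3, Prdx3, Glrx, Glrx2 and Gss lower. Endocrine scaling called these same genes higher, and also Sod2, Gpx4, Prdx2, Txn2, Txnrd1, Txnrd2, Gclc and Keap1. It ended the call of Txnrd3. The acinar score ended the calls of Sod1, Prdx4, Gsr, Gsta4, Nqo1, Txnrd3 and Keap1, and Prdx3 was newly called lower. With the fibroblast score Sod1, Sod3, Gpx1, Prdx4, Gsta4 and Gstp1 were still called, and the calls of the other members ended. The macrophage score ended every call among the members.

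**Figure D1:**
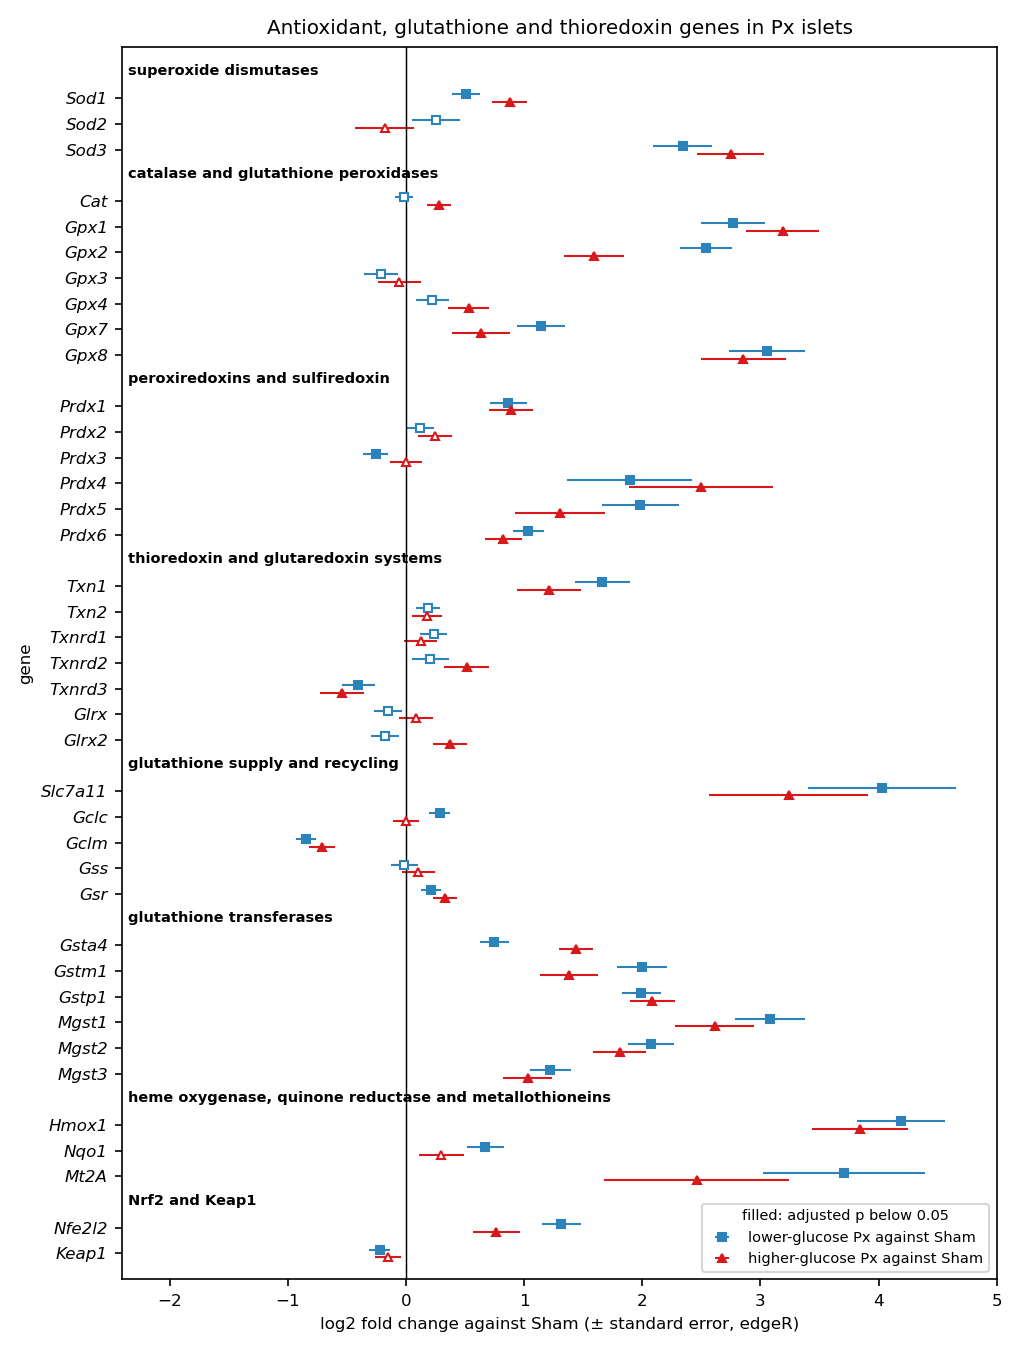
Log2 fold change against Sham (x axis, ± standard error from edgeR) of the 39 measured members (y axis, by role) in lower-glucose Px (blue squares) and higher-glucose Px (red triangles), filled where the adjusted p was below 0.05. Both comparisons share the 5 Sham libraries; the glutathione transferases lie to the right of 0 in both, Gclm and Txnrd3 lie to the left in both, and most of the thioredoxin and glutaredoxin genes lie near 0.

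Of the regulators, Nfe2l2 rose and Keap1 fell slightly. Nfe2l2 (chromosome 3, 62497571 to 62524996, minus strand, coordinates of the deposited counts, for which the sources used here name no genome build) was at 26.2, 29.8, 26.8, 26.8 and 25.97 CPM in the 5 Sham libraries. In the 10 Px libraries its lowest, median and highest levels were 40.0, 56.7 and 114 CPM. The groups did not overlap, and the highest value came from lower-glucose Px replicate 8. The log2 fold change was 1.18 ± 0.19 (SE), with an adjusted p of 4.65e-05 in edgeR. It was not called under library totals (0.61, edgeR adjusted p = 0.0965), and its sign turned with the fibroblast score (-0.25) and with the macrophage score (-0.87). Keap1 was at 31.6, 34.3, 36.6, 44.0 and 35.0 CPM in Sham and at 28.0, 31.1 and 35.8 CPM (lowest, median and highest) in Px, so the groups overlapped. Its log2 fold change was -0.20 ± 0.08 (edgeR adjusted p = 0.0425), it became 0.41 and was called higher under endocrine scaling. The call was lost without a filter on low counts and with a filter of 1 CPM in 5 libraries (edgeR adjusted p = 0.0535 and 0.0657), and in 11 of the 15 fits that left out 1 library (Sham 25, 26 or 27, lower-glucose Px 2, 4, 8, 10, 11 or 16, higher-glucose Px 13 or 19), with adjusted p-values of up to 0.18.

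Nrf2 binds DNA at the antioxidant response element with the core TGACNNNGC. RefSeq promoter windows (build GRCr8, 250 bases before to 50 after the annotated start) were found for 34 of the 41 members, in 40 windows. The core stood on either strand in 10 of the 40 windows, beside 12.1% of 33469 windows of that length over all genes, and these belong to Gclm, Gpx2, Gstp1, Mt2A, Nfe2l2, Prdx1, Prdx4, Prdx5, Sod2 and Txnrd1. The AP-1 element TGANTCA, which can overlap the Nrf2 core, stood in 6 of the 40 windows and 7.33% of all windows. The metal response core TGCACNC or TGCGCNC stood in 9 of the 40 windows and 24.2% of all windows. The Nrf2 cores that lie before the start are printed here because the genes that carry them did not share 1 direction. Each is read 5′ to 3′ on the gene's strand with up to 20 flanking bases, and the capitals mark the core or its reverse complement.
Gstp1: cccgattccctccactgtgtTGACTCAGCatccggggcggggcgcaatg
Mt2A: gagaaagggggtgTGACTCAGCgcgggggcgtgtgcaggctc
Prdx1: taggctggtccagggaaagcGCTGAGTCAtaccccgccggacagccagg
Gpx2: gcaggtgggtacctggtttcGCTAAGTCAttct
Gclm: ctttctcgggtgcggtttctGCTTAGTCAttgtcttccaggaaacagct
Txnrd1: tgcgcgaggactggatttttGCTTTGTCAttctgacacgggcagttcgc
Sod2: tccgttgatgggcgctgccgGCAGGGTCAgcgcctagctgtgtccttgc

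In GRCr8 the stretches are chr1:210769738-210769786 on the minus strand for Gstp1, chr19:10838917-10838958 on the minus strand for Mt2A and chr5:135383751-135383799 on the plus strand for Prdx1. They are chr6:101230034-101230066 on the minus strand for Gpx2, chr2:213031943-213031991 on the plus strand for Gclm, chr7:22755954-22756002 on the minus strand for Txnrd1 and chr1:50050175-50050223 on the minus strand for Sod2. Counted from the start, the cores begin at -61 in Gstp1, -237 in Mt2A, -135 in Prdx1, -13 in Gpx2, -172 in Gclm, -78 in Txnrd1 and -35 in Sod2. The cores of Gstp1, Mt2A and Prdx1 also hold an AP-1 element. Of these 7 genes Gstp1, Mt2A, Prdx1 and Gpx2 rose in Px, Gclm fell, and Txnrd1 and Sod2 passed no threshold. Nfe2l2, Prdx4 and Prdx5, whose cores do not lie wholly before the start, also rose. The Mt2A window also holds 4 matches to the metal response core, of which the one nearest to the start reads TGCGCGC at -55. A match describes the letters only. Sequence outside these windows was not searched, so a member without a match here may carry a core elsewhere.

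Of the 3 superoxide dismutases, 2 were higher in Px. Sod3, the extracellular enzyme, was at 1.06, 4.04, 2.41, 2.53 and 3.33 CPM in Sham and at 8.42, 15.6 and 19.2 CPM (lowest, median and highest) in Px. Every Px library was above every Sham library, with a log2 fold change of 2.48 ± 0.26 (edgeR adjusted p = 5.46e-07). Sod1, the cytosolic copper and zinc enzyme, was at 120.4 ± 22.2 CPM in Sham (SD, n = 5) and 187 ± 33.4 in Px (SD, n = 10), a log2 fold change of 0.63 ± 0.14 (edgeR adjusted p = 0.000622), which was -0.005 under scaling by library totals. Sod2, the mitochondrial manganese enzyme, did not pass the threshold. It was at 83.4 to 98.2 CPM in Sham and at 72.5, 82.8 and 193 CPM in Px, where the highest value came again from lower-glucose Px replicate 8, and its log2 fold change was 0.14 ± 0.20 (edgeR adjusted p = 0.55).

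Catalase and the glutathione peroxidases divided: Gpx1, Gpx2, Gpx7 and Gpx8 rose, and Cat, Gpx3 and Gpx4 did not pass the threshold. Gpx1, the cytosolic peroxidase of most tissues (chromosome 8, 117117430 to 117118522, plus strand), was at 8.67, 10.4, 12.9, 14.7 and 9.92 CPM in Sham. In Px it was at 47.0, 73.6 and 139.8 CPM (lowest, median and highest). The lowest Px library thus lay above the highest Sham library, and the log2 fold change was 2.91 ± 0.28 (edgeR adjusted p = 2.38e-07). Gpx2, a peroxidase best known from the gut epithelium, was at 2.59, 4.10, 3.54, 2.58 and 4.07 CPM in Sham and at 8.45, 14.4 and 25.2 CPM in Px, without overlap (log2 fold change 2.32 ± 0.29, edgeR adjusted p = 3.22e-06). Gpx8, a peroxidase of the endoplasmic reticulum, was at 0.688 to 1.47 CPM in Sham and 3.17 to 11.5 CPM in Px, a log2 fold change of 3.005 ± 0.31 (edgeR adjusted p = 4.59e-07). Gpx7, of the same compartment, was at 2.30 ± 0.40 CPM in Sham and 4.65 ± 1.28 in Px, and its groups overlapped through higher-glucose Px replicate 13 at 2.39 CPM (log2 fold change 1.01 ± 0.22, edgeR adjusted p = 0.000585). With the fibroblast score as a covariate the sign of Gpx7 turned (-1.06) and so did that of Gpx2 (-0.14), and Gpx8 was at 1.11 and not called (edgeR adjusted p = 0.28). Gpx7 was not called under library totals (0.45, edgeR adjusted p = 0.254).

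Catalase itself was at 34.1, 30.7, 26.9, 30.3 and 31.4 CPM in Sham and at 27.7, 31.5 and 41.8 CPM in Px. The 7 lower-glucose Px libraries lay within the Sham range, the 3 higher-glucose libraries lay above it, and the log2 fold change was 0.08 ± 0.09 (edgeR adjusted p = 0.456). Catalase was called lower under library totals and higher under endocrine scaling. By group means Gpx3, the secreted peroxidase, was the most abundant of the family per length, at 125 CPM per kb of exon in Sham and 112 in Px. Gpx1 came close to it in higher-glucose Px (means of 118.7 against 120.5 CPM per kb), and the order did not hold in each Px library. The log2 fold change of Gpx3 was -0.16 ± 0.14 (edgeR adjusted p = 0.312), and it was called lower under library totals and higher under endocrine scaling. Gpx4, which reduces lipid peroxides, was at 32.7 ± 6.70 CPM in Sham and 40.98 ± 7.54 in Px, a log2 fold change of 0.33 ± 0.14 just outside the threshold (edgeR adjusted p = 0.056). The Gpx4 call was gained in 3 of 15 fits that left out 1 library (Sham 26, lower-glucose Px 10 or 11), with adjusted p-values from 0.0115 to 0.167 over all 15.

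Of the 6 measured peroxiredoxins 4 were higher. Prdx4 works in the endoplasmic reticulum, where it takes up peroxide made by protein folding (chromosome X, 43497763 to 43512991, plus strand). It was at 35.96, 59.1, 196, 53.0 and 75.2 CPM in Sham and at 112, 357 and 690.4 CPM (lowest, median and highest) in Px. Sham replicate 25 at 196 CPM overlapped the Px range, and its acinar share of 15.9% was the highest in Sham. The log2 fold change was 2.11 ± 0.52 (edgeR adjusted p = 0.00197) and 2.69 without Sham replicate 25. It turned to -1.28 once the acinar score entered the fit. Prdx5, found in mitochondria, peroxisomes and cytosol, was at 25.3, 28.8, 33.4, 44.1 and 28.8 CPM in Sham and at 76.3, 82.8 and 318 CPM in Px. No library overlapped, the log2 fold change was 1.82 ± 0.34 (edgeR adjusted p = 0.000178), and the highest value was that of lower-glucose Px replicate 8.

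Prdx6, which also acts on phospholipids, was at 23.8 to 34.8 CPM in Sham and 46.3 to 76.6 CPM in Px (log2 fold change 0.98 ± 0.13, edgeR adjusted p = 6.49e-06). Prdx1, the main cytosolic enzyme and 1 of the genes with an Nrf2 core shown above, was at 32.7 to 43.1 CPM in Sham and 53.3 to 104 CPM in Px (log2 fold change 0.88 ± 0.15, edgeR adjusted p = 6.36e-05). Neither overlapped. Neither was called under library totals (0.39 for Prdx6 and 0.26 for Prdx1, edgeR adjusted p = 0.184 and 0.364) or with the fibroblast score, where the values were 0.15 and 0.57 (edgeR adjusted p = 0.799 and 0.405). Prdx2, a further cytosolic enzyme, gave 43.7 ± 5.07 CPM in Sham and 48.9 ± 7.36 in Px, and Prdx3, the mitochondrial enzyme, gave 29.1 ± 3.15 and 25.9 ± 4.00 CPM. Both overlapped, with edgeR adjusted p-values of 0.204 and 0.183. Prdx3 was called lower under library totals and with the acinar score, and higher under endocrine scaling.

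In the thioredoxin and glutaredoxin systems 1 of 7 genes rose and 1 fell. Txn1, the cytosolic thioredoxin that hands electrons to the peroxiredoxins (chromosome 5, 75049747 to 75057752, minus strand), was at 18.9, 26.9, 24.5, 30.2 and 19.7 CPM in Sham. In Px it was at 46.7, 66.5 and 146 CPM, above every Sham library, with a log2 fold change of 1.55 ± 0.23 (edgeR adjusted p = 2.43e-05). Its reductase Txnrd1 was at 56.2 ± 9.11 CPM in Sham and 64.9 ± 8.34 in Px, a log2 fold change of 0.21 ± 0.11 (edgeR adjusted p = 0.103). The mitochondrial pair gave the same kind of values, with a log2 fold change of 0.19 ± 0.10 for Txn2 and 0.31 ± 0.16 for Txnrd2 (edgeR adjusted p = 0.0911 and 0.0917). Txnrd3, a reductase with a glutaredoxin domain known from testis, was at 5.24, 4.70, 4.55, 3.42 and 4.36 CPM in Sham and at 2.49, 3.37 and 3.72 CPM in Px. It overlapped through Sham replicate 26 alone among the Sham libraries, and its log2 fold change was -0.44 ± 0.13 (edgeR adjusted p = 0.00872), which became 0.15 under endocrine scaling. The glutaredoxins Glrx and Glrx2, which remove glutathione from proteins, had log2 fold changes of -0.07 ± 0.12 and 0.01 ± 0.15 (edgeR adjusted p = 0.602 and 0.942).

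The genes of glutathione supply went in opposite directions. Slc7a11 is the transporter that brings in cystine, the source of the cysteine in glutathione (chromosome 2, 139453774 to 139528162, minus strand). It was at 2.17, 2.83, 3.41, 1.69 and 3.67 CPM in Sham and at 11.7, 28.0 and 114 CPM in Px. No library overlapped, although the Px libraries themselves spanned a wide range with lower-glucose Px replicate 8 highest. The log2 fold change was 3.84 ± 0.62 (edgeR adjusted p = 4.64e-05) and turned to -1.52 once the macrophage score entered the fit. Gclm, the modifier subunit of glutamate-cysteine ligase, the rate-limiting enzyme of glutathione synthesis, fell (chromosome 2, 225827504 to 225847874, plus strand). It was at 53.3, 47.6, 53.3, 48.7 and 55.0 CPM in Sham and at 22.95, 29.9 and 35.3 CPM in Px.

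Every Px library was thus below every Sham library for Gclm, with a log2 fold change of -0.80 ± 0.08 (edgeR adjusted p = 4.53e-07). Gclm was also lower under library totals (-1.46), endocrine scaling (-0.23, edgeR adjusted p = 0.0339) and in the fit with the acinar score (-0.96). It was not called with the fibroblast score (-0.27) or with the macrophage score (0.07). Gclc, the catalytic subunit of the same enzyme, was at 27.6 ± 2.34 CPM in Sham and 31.9 ± 4.31 in Px (log2 fold change 0.21 ± 0.10, edgeR adjusted p = 0.0749). Gss, which adds the last amino acid, was at 12.6 ± 2.51 and 12.9 ± 0.83 CPM (edgeR adjusted p = 0.828). Gsr, which reduces oxidised glutathione, was at 30.7 ± 3.78 CPM in Sham and 36.6 ± 2.49 in Px, with a log2 fold change of 0.25 ± 0.08 (edgeR adjusted p = 0.0107) that was -0.39 under library totals.

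All 6 glutathione transferases rose, and for each of them the groups did not overlap. No scaling turned a sign among them, though Gsta4 and Mgst3 were not called under library totals. With the fibroblast score Gstm1, Mgst1, Mgst2 and Mgst3 were not called, with the acinar score Gsta4 was not, and with the macrophage score none was. Gstp1, a cytosolic transferase that has an Nrf2 core at -61, was at 5.55, 6.98, 9.10, 8.67 and 6.42 CPM in Sham and at 22.4, 30.0 and 37.8 CPM in Px. Its log2 fold change of 2.03 ± 0.16 had the smallest adjusted p of the members (3.25e-08, edgeR). Mgst1, a transferase of the endoplasmic reticulum and outer mitochondrial membrane, was at 1.59, 5.11, 1.97, 1.96 and 1.55 CPM in Sham and at 13.7, 17.5 and 32.3 CPM in Px, with Sham replicate 24 apart from the other Sham libraries. The log2 fold change was 2.96 ± 0.30 (edgeR adjusted p = 4.75e-07) and 3.42 without Sham replicate 24. Mgst2 and Mgst3, of the same membrane family, changed by 2.004 ± 0.19 and 1.17 ± 0.17 on the log2 scale (edgeR adjusted p = 2.66e-07 and 1.35e-05). Gstm1 and Gsta4, cytosolic enzymes, changed by 1.85 ± 0.24 and 0.997 ± 0.19 (edgeR adjusted p = 4.22e-06 and 0.000175). Gstm1 has close relatives in a gene cluster, and no source used here says how reads shared between copies were counted, so its level is uncertain in that respect.

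Hmox1 had the largest log2 fold change of the members. It encodes heme oxygenase 1, which breaks down heme and is an inducible Nrf2 target that macrophages also express (chromosome 19, 14508616 to 14515456, plus strand). It was at 1.43, 2.93, 2.71, 3.25 and 4.64 CPM in Sham and at 18.3, 52.5 and 73.8 CPM in Px, without overlap. The log2 fold change was 4.10 ± 0.37 (edgeR adjusted p = 1.31e-07). With the acinar score as a covariate it was 4.72 and still called, with the fibroblast score it was 1.97 and not called (edgeR adjusted p = 0.101), and with the macrophage score it was 2.56 and not called (edgeR adjusted p = 0.404). Nqo1, the quinone reductase that often serves as a readout of Nrf2, was at 5.55, 7.33, 8.57, 8.402 and 8.03 CPM in Sham and at 6.70, 11.8 and 14.4 CPM in Px. The overlap came from higher-glucose Px replicates 13 and 15, and the log2 fold change of 0.58 ± 0.16 (edgeR adjusted p = 0.00528) was -0.004 under library totals.

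Mt2A, a metallothionein that binds zinc and copper, rested on few reads, with 2 to 15 counts in the Sham libraries and 9 to 358 in the Px libraries. It was at 0.115 to 0.758 CPM in Sham and at 0.525, 3.59 and 12.4 CPM in Px, with overlap through lower-glucose Px replicate 11 and higher-glucose Px replicate 13. Its log2 fold change was 3.44 ± 0.72 (edgeR adjusted p = 0.000472). A row named Mt1, a symbol for which RefSeq lists Mt1a as a synonym and which was chosen after its values were seen, was at 2.64 ± 0.73 CPM in Sham and 9.29 ± 5.44 in Px (log2 fold change 1.81 ± 0.43, edgeR adjusted p = 0.00156). Metallothioneins are a family of related genes, so their counts may share the uncertainty named for Gstm1.

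**Figure D2:**
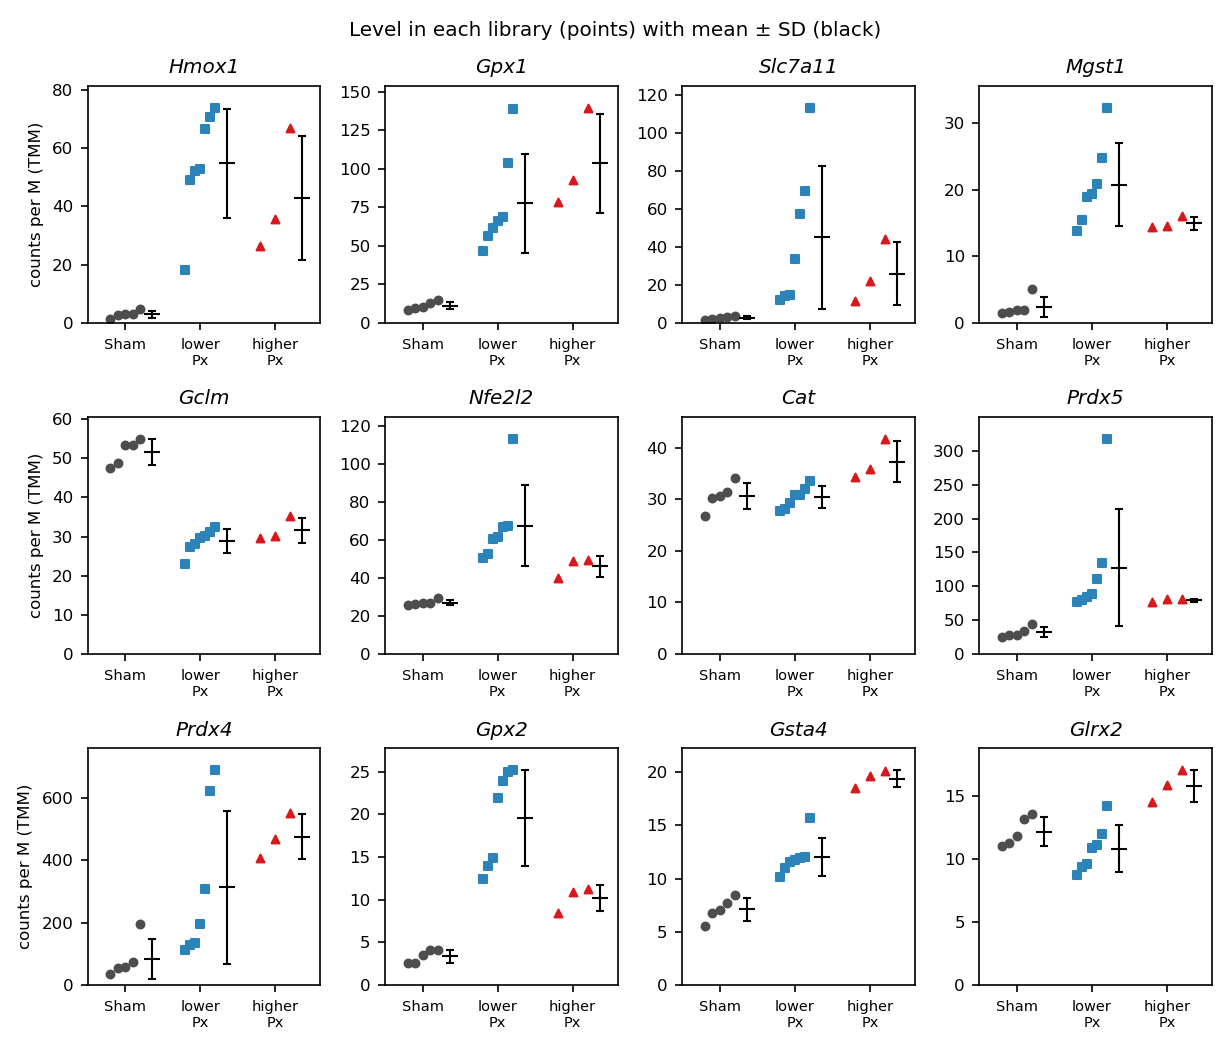
Level of 12 members in each library (y axis, counts per M with TMM scaling, from 0), with 5 Sham (grey circles), 7 lower-glucose Px (blue squares) and 3 higher-glucose Px (red triangles) libraries and the mean ± SD in black. Hmox1, Gpx1, Slc7a11 and Mgst1 lie above Sham in every Px library, Gclm lies below it in every Px library, Cat overlaps, and single libraries stand out for Prdx5 (318) and for Prdx4 in Sham (196).

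Levels between genes were compared only as CPM per kb of exon. In Sham the highest members were Sod1 (184), Gpx3 (125), Prdx4 (92.4, or 61.5 without Sham replicate 25) and Txn1 (76.3), and the lowest were Slc7a11 (0.310), Gpx8 (0.936) and Mt2A (0.983). Catalase at 12.1 and Gpx1 at 12.95 CPM per kb were at a similar level in Sham. In Px they were at 12.8 and 97.8 CPM per kb. By the mean over Px libraries Prdx4 was at 399 CPM per kb, Sod1 at 285, Txn1 at 223 and Prdx5 at 139. That order did not hold in each library: Prdx4 lay above Sod1 in 6 Px libraries and below it in the 4 with lower-glucose numbers 2, 4, 8 and 10, and in 3 of these (2, 4 and 8) it also lay below Txn1. Hmox1 went from 1.91 to 32.7 CPM per kb, and Gclm from 34.7 to 19.96.

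The design also allows the Px rats to be read by their glucose. In lower-glucose Px against Sham 24 members were higher and 4 lower, where 33.6% of all genes were higher and 30.0% lower. In higher-glucose Px against Sham 26 members were higher and 2 lower, where 32.2% of all genes were higher and 25.5% lower. Both comparisons share the Sham libraries. Of the 39 members 22 were higher in both, and Gclm and Txnrd3 were lower in both. Gclc and Nqo1 were called higher, and Prdx3 and Keap1 lower, in lower-glucose Px alone. Cat, Gpx4, Txnrd2 and Glrx2 were called higher in higher-glucose Px alone.

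The difference between the Px groups was tested itself. In higher- against lower-glucose Px 2 members were higher, Gsta4 and Glrx2, and 1 was lower, Gpx2, where 3.29% of all genes were higher and 1.59% lower. At an unadjusted p below 0.05 there were 9 members. The members' median log2 difference was -0.01, beside -0.02 over all genes. For Gclc, Nqo1, Prdx3, Keap1, Cat, Gpx4 and Txnrd2 the difference between the Px groups did not pass the threshold, so a call in 1 group alone does not show that the groups differ.

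Gsta4, a transferase for the lipid aldehyde 4-hydroxynonenal, rose from 7.11 ± 1.11 CPM in Sham (SD, n = 5) to 12.02 ± 1.76 in lower-glucose Px (SD, n = 7), with 10.2, 11.7 and 15.7 as the lowest, median and highest value. The 3 higher-glucose libraries were at 18.5, 19.6 and 20.1 CPM. They lay above every lower-glucose library, with a log2 difference of 0.69 ± 0.13 (edgeR adjusted p = 0.00718). Glrx2, the mitochondrial glutaredoxin, was at 8.70, 10.8 and 14.2 CPM in lower-glucose Px and at 14.5, 15.8 and 17.0 CPM in higher-glucose Px. Its Sham level of 12.2 ± 1.13 CPM lay between the means of the Px groups, and the difference between them was 0.55 ± 0.14 on the log2 scale (edgeR adjusted p = 0.0306).

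Gpx2 went the other way. It was at 12.4, 21.9 and 25.2 CPM (lowest, median and highest) in lower-glucose Px and at 10.9, 8.45 and 11.3 CPM in higher-glucose Px, with no overlap. The log2 difference was -0.95 ± 0.24 (edgeR adjusted p = 0.0346). Under library totals, and for a slope on log2 glucose over all 10 Px libraries, Gpx2, Gsta4 and Glrx2 were not called. Under endocrine scaling Gsta4 and Glrx2 were not called higher. The calls of Gpx2 and of Glrx2 were each lost in 6 of 15 fits that left out 1 library (lower-glucose Px 2, 4 or 10, or any of the 3 higher-glucose Px), with adjusted p-values of up to 0.151 and 0.122. Of the marker lists, 6 of 16 fibroblast and stellate cell markers were lower in higher-glucose Px, and 1 of 7 alpha, delta and PP cell markers was higher. At an unadjusted p below 0.05 there were 11 and 4 of these. In the other lists 0 markers passed. At an unadjusted p below 0.05 were 1 of 26 acinar, 4 of 9 beta cell, 4 of 16 macrophage, 2 of 12 duct and 3 of 10 endothelial markers. With the fibroblast score as a covariate edgeR called 0 members higher and 0 lower, with 5 at an unadjusted p below 0.05, and with the acinar score 1 was higher and 0 lower. With the macrophage score 3 were higher and 1 lower, with 11 at an unadjusted p below 0.05, and Gpx1 joined Gsta4 and Glrx2 among those higher.

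Nfe2l2 itself was at 67.7 ± 21.2 CPM in lower-glucose Px and 46.2 ± 5.32 in higher-glucose Px, and the log2 difference of -0.55 ± 0.19 did not pass the threshold (edgeR adjusted p = 0.109). Hmox1 was at 54.7 ± 18.8 and 43.0 ± 21.2 CPM (edgeR adjusted p = 0.576), and Gclm at 28.8 ± 3.098 and 31.6 ± 3.16 CPM (edgeR adjusted p = 0.437). Catalase was at 30.4 ± 2.15 and 37.3 ± 3.98 CPM (edgeR adjusted p = 0.0751), a difference that passed only without lower-glucose Px replicate 14 (edgeR adjusted p = 0.047). Within the 7 lower-glucose libraries the slope on log2 glucose was called for 0 members in either direction by edgeR, DESeq2 and limma voom, where 0% of all genes were higher and 0% lower by edgeR, and 3 members had an unadjusted p below 0.05. With 7 libraries and no call among all genes this does not show that members do not follow glucose. The members' median slope was -0.19, and 0.11 without lower-glucose Px replicate 11.

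Members were also set against the marker scores within the 10 Px libraries, as log2(CPM + 1), in 117 relations of 39 genes with 3 scores. Prdx4 rose with the acinar score, with Pearson's r of 0.967 (permutation test, 100000 resamples, p = 6e-05, adjusted p = 0.00702) and Spearman's rho of 0.891 (permutation p = 0.00143, adjusted p = 0.0686). Without the 2 libraries farthest from the median score r was 0.945. Gpx7 rose with the fibroblast score, with r of 0.907 (permutation p = 0.00028, adjusted p = 0.0164), rho of 0.879 (permutation p = 0.00159, adjusted p = 0.0686) and r of 0.887 without the 2 farthest libraries. No relation passed the adjustment by rho. Prdx5 and the macrophage score had r of 0.915 (permutation p = 0.00392, adjusted p = 0.0789) and rho of 0.794 (permutation p = 0.00894, adjusted p = 0.116). The value of r was 0.153 without the 2 farthest libraries, so the size of r rested on them. Lower-glucose Px replicate 8 is 1 of these, with the highest macrophage score (6.71) and the highest macrophage sum (4562 CPM). An adjusted p of r of 0.0789 (permutation test) was also that of Gpx2 with the acinar score (-0.866) and the fibroblast score (0.83). The same held for Gsta4 with the fibroblast score (-0.82), and for Txn1, Mgst1 and Slc7a11 with the macrophage score (0.85, 0.84 and 0.759). Without the 2 farthest libraries r was -0.782, 0.877, -0.729, 0.419, 0.655 and 0.264 in this order.

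**Figure D3:**
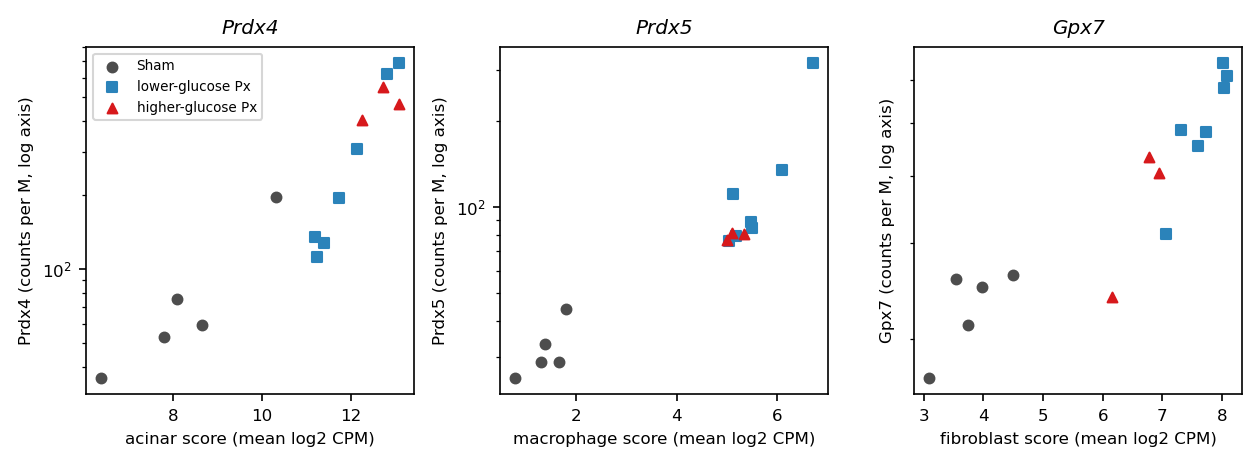
Level of Prdx4, Prdx5 and Gpx7 (y axis, counts per M, log axis) against the acinar, macrophage and fibroblast score (x axis, mean log2 CPM of the markers) in Sham (grey circles), lower-glucose Px (blue squares) and higher-glucose Px (red triangles) libraries. Prdx4 follows the acinar score over the Px libraries (r = 0.967), and the highest Prdx5 value (318) belongs to the library with the highest macrophage score.

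Genes that work beside the members came from 8 lists of 95 further redox genes, of which 89 were in the count table and 80 were tested. In Px against Sham 40 were higher and 18 lower (34.5% and 30.2% of all genes), with a median log2 fold change of 0.39. Of 7 genes for NADPH, the electron source for both thioredoxin and glutathione reductase, 3 were higher and 2 lower. Taldo1 and Tkt of the pentose phosphate pathway changed by 0.66 ± 0.12 and 0.60 ± 0.17 (log2, edgeR adjusted p = 0.000128 and 0.00528). Nnt, the mitochondrial transhydrogenase, and Me1, malic enzyme, changed by -0.47 ± 0.10 and -0.46 ± 0.15 (edgeR adjusted p = 0.000475 and 0.0146).

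Of 17 other glutathione enzymes 7 were higher and 3 lower. Oplah, which returns glutamate from the glutathione cycle, went from 4.98 ± 0.86 to 22.4 ± 4.32 CPM, and Glo1, which clears methylglyoxal, from 43.2 ± 5.89 to 68.7 ± 9.24 CPM (edgeR adjusted p = 1.99e-08 and 5.5e-05). Gstz1, a transferase of tyrosine breakdown, fell from 83.04 ± 8.39 to 43.6 ± 4.41 CPM, and Gstm4 from 40.6 ± 1.83 to 33.04 ± 3.84 CPM (edgeR adjusted p = 1.32e-07 and 0.00523). Gstz1 and Gstm4 thus moved against the 6 member transferases, though the level of Gstm4 may share the uncertainty named for Gstm1.

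Of 10 Nrf2 partners and regulators 3 were higher and 4 lower. Bach1, a repressor at the same DNA element, and the small Maf gene Maff changed by 1.07 ± 0.15 and 1.24 ± 0.22 (log2, edgeR adjusted p = 9.32e-06 and 9.05e-05). Btrc, part of a ligase that degrades Nrf2 apart from Keap1, and Mafg changed by -0.98 ± 0.07 and -0.57 ± 0.12 (edgeR adjusted p = 2.59e-08 and 0.000343). Of 12 other Nrf2 targets 8 were higher and 2 lower. Akr1b8, an aldo-keto reductase, and Ephx1, epoxide hydrolase, changed by 3.18 ± 0.27 and 1.55 ± 0.20, and the export pumps Abcc1 and Abcc3 by -0.38 ± 0.10 and -0.77 ± 0.29 (edgeR adjusted p = 6.78e-08, 4.18e-06, 0.00247 and 0.026).

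Of 7 thioredoxin-like genes and the thioredoxin inhibitor 5 were higher and 1 lower. Txnip, the inhibitor of thioredoxin that responds to glucose in beta cells, was at 105 ± 33.1 CPM in Sham and 669.5 ± 320.1 in Px, a log2 fold change of 2.67 ± 0.38 (edgeR adjusted p = 1.24e-05). It was at 604 ± 325 CPM in lower-glucose and 824 ± 305 in higher-glucose Px, a difference that did not pass (edgeR adjusted p = 0.518). Nxn, nucleoredoxin, rose by 2.83 ± 0.23, and Txndc5, a disulfide isomerase of the endoplasmic reticulum, changed by -0.32 ± 0.10 (log2, edgeR adjusted p = 5.58e-08 and 0.00915).

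On the side that makes superoxide, 8 of 9 tested oxidase genes were higher and 0 lower. Cybb, the catalytic subunit of the phagocyte NADPH oxidase, went from 2.71 ± 0.46 to 78.7 ± 56.0 CPM, and Xdh, xanthine dehydrogenase, from 3.83 ± 1.29 to 58.7 ± 10.8 CPM (log2 fold changes 4.86 ± 0.54 and 3.93 ± 0.21, edgeR adjusted p = 1.09e-06 and 2.44e-09). The macrophage markers, whose sums stand above, were also higher in Px, as were most acinar, fibroblast, duct and endothelial markers. The relation of Cybb to any of them was not tested.

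Of 13 genes for methionine sulfoxide reduction, selenium and copper 5 were higher and 2 lower in Px against Sham. Msrb3 and Msrb1 changed by 1.77 ± 0.16 and 1.54 ± 0.16, and Msrb2 and Selenot by -0.45 ± 0.13 and -0.28 ± 0.11 (log2, edgeR adjusted p = 1.71e-07, 6.72e-07, 0.00578 and 0.0284). Of 5 metallothionein and zinc genes 1 was higher, Mt3 (1.12 ± 0.31), and 4 were lower, among them the beta cell zinc transporter Slc30a8 (-1.26 ± 0.13) and Slc39a14 (-0.48 ± 0.11), with edgeR adjusted p-values of 0.0041, 5.31e-07 and 0.000794. In higher- against lower-glucose Px 5 of 82 further redox genes were higher and 1 lower (3.29% and 1.59% of all genes). They were Glrx3 (0.44 ± 0.12), Msrb2 (0.49 ± 0.12) and Slc39a14 (-0.41 ± 0.10), and, chosen after their values were seen, Msra, Selenok and Sephs2 (1.01 ± 0.26, 0.42 ± 0.10 and 0.61 ± 0.16), with edgeR adjusted p-values from 0.023 to 0.0397. Of these 6, 4 belong to the list for methionine sulfoxide reduction, selenium and copper.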

How the data were processed

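Polyadenylated RNA was sequenced per the labels, and the authors deposited unnormalised read counts for each gene, beside its coordinates and exon length, in a layout that featureCounts writes. The submitters' processing notes name FastQC, Subread, featureCounts and limma. No source used here gives versions, genome build, annotation, strand setting or the handling of shared reads. The kit is directional per the labels, and a further mark in the sample titles is not explained there. A deposited table of the authors' own comparison gives log2 fold changes, a fold column that is a linear ratio, p-values and adjusted p-values, and it was used only for the counts of calls credited to it.

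Groups were set from the labels, with a boundary at a glucose of 300. The members, lists, groups and tests were chosen with earlier results of these data known. Low genes were removed by filterByExpr (counts of at least 10, totals of at least 15), libraries scaled by TMM and tested two-sided with edgeR 4.0.16 (glmQLFit, glmQLFTest) in R 4.3.3. All Px were set against Sham in a model of 2 groups. A model of 3 groups gave the comparisons by glucose, and the 7 lower-glucose libraries gave the slope on log2 glucose. P-values were adjusted over all genes by Benjamini-Hochberg at 0.05. Named were the measured members and, from each further redox list, up to 2 rising and 2 falling genes by smallest p for Px against Sham and up to 1 of each for higher- against lower-glucose Px. Marker scores used a prior count of 2. Alternatives were library totals, DESeq2 size factors, scaling to endocrine genes, other filters (none, or 1 CPM in 5 libraries), DESeq2 1.42.0, limma voom (3.58.1), 3 covariates, a slope over 10 Px libraries and leaving out each library. On simulated counts of 13069 genes with 200 changed, 92% of log2 changes of 1 and 100% of changes of 2 were recovered for Px against Sham, with 5.4% false calls, and 80%, 100% and 4.8% for higher- against lower-glucose Px. The simulation gave every gene the same dispersion of 0.05 and as many rises as falls. In the data spread differs between genes, and 34.5% and 30.2% of genes were called higher and lower in Px against Sham. The simulated rates are therefore not those of this experiment. Promoter sequences are from RefSeq (GRCr8).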

Additional observations from a re-analysis of the deposited data

Results flagged for a closer look

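Among the members' levels in Sham and in lower-glucose Px, 78 sets of libraries were checked for a highest or lowest value that stands apart from the rest of its group, and 11 values did. Chance flags about 1 in 20 such groups. Of the 11, 5 belong to lower-glucose Px replicate 8. They are Sod2 at 193 CPM (72.5 to 124 in the 6 others), Prdx1 at 104 (53.3 to 69.5), Prdx5 at 318 (76.3 to 135), Txn1 at 146 (46.7 to 72.9) and Nfe2l2 at 114 (50.8 to 67.7). The macrophage score of that library, 6.71, was the highest. Over the 10 Px libraries Pearson's r with that score was 0.801, 0.49, 0.915, 0.85 and 0.771 for these genes in the same order, and none passed the adjustment. Without the 2 libraries farthest from the median score r was -0.356, -0.163, 0.153, 0.419 and 0.206. Beyond these relations and the covariate fits the part of these cells in the values was not tested. Prdx4 in Sham replicate 25 stood at 196 CPM (35.96 to 75.2 in the other Sham libraries), beside an acinar share of 15.9% of counts. Mgst1 (5.11 CPM, 1.55 to 1.97 in the others) and Nfe2l2 (29.8, 25.97 to 26.8) stood apart in Sham replicate 24, and Gstm1 (1.75, 2.40 to 2.58) in Sham replicate 23. Txnrd3 stood apart in lower-glucose Px replicate 11 (2.57, 3.25 to 3.72), and Gsta4 in lower-glucose Px replicate 16 (15.7, 10.2 to 12.01).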

How the results depend on the processing

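In Px against Sham the counts of members higher and lower (23 and 3) became 14 and 9 under library totals, 37 and 1 under endocrine scaling, 23 and 2 without a filter, 24 and 2 with the 1 CPM filter, 0 and 0 with the macrophage score and 6 and 0 with the fibroblast score as a covariate, and 23 to 25 and 2 to 3 when single libraries were left out. In lower-glucose Px (24 and 4) they became 37 and 0 under endocrine scaling, with 9 lower under library totals, 2 lower without a filter and with the 1 CPM filter, and 0 and 0 with the macrophage or fibroblast score. Leaving out single libraries gave 23 to 26 and 2 to 4. In higher-glucose Px (26 and 2) they became 8 and 15 under library totals, 12 and 1 with the acinar score, and 0 and 0 with the macrophage or fibroblast score, with 1 lower under endocrine scaling and 21 to 27 and 1 to 2 when single libraries were left out. In higher- against lower-glucose Px (2 and 1) they became 0 and 0 under library totals, with the fibroblast score and for the slope over 10 Px libraries, 1 and 0 with the acinar score, 0 higher under endocrine scaling and 2 lower by DESeq2, and single libraries left out gave 1 to 3 and 0 to 1. Why these counts moved was not tested beyond the shift of all genes under scaling.

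For single genes the sign of the log2 fold change of Px against Sham turned under library totals for Sod1 (-0.005), Sod2 (-0.446), Cat (-0.603), Gpx4 (-0.326), Prdx2 (-0.455), Txn2 (-0.431), Txnrd1 (-0.414), Txnrd2 (-0.396), Glrx2 (-0.684), Gclc (-0.399), Gss (-0.598), Gsr (-0.386) and Nqo1 (-0.004). It turned under endocrine scaling for Gpx3 (0.44), Prdx3 (0.411), Txnrd3 (0.147), Glrx (0.528) and Keap1 (0.408). With the acinar score it turned for Prdx4 (-1.28), Txn2 (-0.085), Txnrd1 (-0.006), Txnrd2 (-0.354), Glrx2 (-0.644), Gss (-0.243) and Gsr (-0.053). With the fibroblast score it turned for Sod2 (-0.859), Gpx2 (-0.142), Gpx7 (-1.059), Prdx2 (-0.068), Prdx3 (0.381), Prdx5 (-0.076), Txn1 (-0.158), Txnrd1 (-0.097), Glrx (0.308), Gclc (-0.292), Gss (-0.071), Nqo1 (-0.521), Mt2A (-1.77) and Nfe2l2 (-0.248). With the macrophage score it turned for Sod2 (-2.134), Gpx3 (0.219), Gpx4 (-0.071), Gpx7 (-0.397), Prdx1 (-0.072), Prdx2 (-0.604), Prdx5 (-2.386), Txn1 (-1.367), Txn2 (-0.254), Txnrd1 (-0.988), Slc7a11 (-1.518), Gclc (-0.335), Gclm (0.072), Gss (-0.409), Nqo1 (-0.412), Mt2A (-1.621) and Nfe2l2 (-0.869). Glrx2, which was not called, was -0.008 by DESeq2, -0.006 with its size factors and -0.047 by limma voom. Without single libraries Glrx2 ran from -0.047 to 0.066, Gss from -0.069 to 0.125 and Sod2 from -0.015 to 0.199.

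In higher- against lower-glucose Px the sign turned under library totals for Cat (-0.194), Gpx4 (-0.191), Prdx3 (-0.187), Txnrd2 (-0.119) and Keap1 (-0.43), under endocrine scaling for Keap1 (-0.157) and with the fibroblast score for Gpx7 (0.195). In Px against Sham Txn2 was called without Sham 25 (0.27), Sham 26 (0.24) or higher-glucose Px 15 (0.23), and Gclc without higher-glucose Px 13 (0.26) or 15 (0.26). No paired analysis was possible because the groups share no replicate numbers. Low counts limit Mt2A, with 2 counts in the shallowest Sham value.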
